A study of Homo sapiens with 24 samples.

Results

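The mitochondrial ribosome translates the few mRNAs that mitochondrial DNA encodes, all of them for subunits of the respiratory chain and of ATP synthase. Its rRNAs come from mitochondrial DNA, but its proteins are encoded in the nucleus, made in the cytosol and imported, so their mRNAs are made apart from the RNAs they assemble with. MRPL genes encode proteins of the large subunit, which forms peptide bonds, and MRPS genes proteins of the small subunit, which reads the mRNA.

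The mitochondrial ribosomal protein genes are described here, as every row of the count table whose symbol was MRPL or MRPS followed by a number, with A, B or C allowed after an MRPS number. This gave 78 of 28307 genes, 49 of the large and 29 of the small subunit. Antisense genes, divergent transcripts and pseudogenes of the same names were left out by the rule. Cells of the breast cancer line SUM159 and of the colon cancer line SW620 were kept under nifuroxazide (NIF), a nitrofuran antibiotic, or its solvent DMSO for 30 h. They were then sorted by aldehyde dehydrogenase activity into ALDHbr cells, which the study calls cancer stem cells, and ALDHneg cells. The 8 groups were thus each line in both populations and under both treatments, with 3 libraries each from separate experiments (24 in all), and no gene was altered in any group. The NIF dose of these cultures was not given in the labels.

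The libraries held 30253187 to 43127948 counts each (median 36520935), and replicates differed by more than counting error. All 10 mesenchymal markers summed to 11391 to 16320.5 CPM (counts scaled to library size) in SUM159 and 106 to 176 CPM in SW620, and the 10 colon epithelial markers to 12967 to 16910 CPM in SW620 and 484 to 766 CPM in SUM159. Of the mesenchymal markers 4 or 5 were under 1 CPM throughout a SW620 population, and of the colon markers 1 or 2 were so in SW620 and 4 or 8 in SUM159. ALDH1A1, the dehydrogenase that the sort reads in part, separated the SUM159 populations widely (97.3 to 206 CPM in ALDHbr, 0.281 to 0.591 CPM in ALDHneg) and the SW620 populations much less (980 to 1440 CPM against 570 to 976 CPM). One library stood apart on the members: DMSO replicate 2 of SW620 ALDHbr cells had a mean log2 CPM over members of 5.96, while replicates 1 and 3 had 6.24 and 6.19. Counts of called members in the comparisons that use it are given with and without it. In SUM159, DMSO replicate 2 of ALDHneg cells was high (6.02, against 5.81 and 5.77).

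Of the 78 members, all passed the low count filter in SUM159 and 77 in SW620. The exception, MRPS24, lay between 0 and 0.633 CPM in all 24 libraries. Its span is overlapped by the read-through gene URGCP-MRPS24, which had 0 counts in every library, and how reads shared by overlapping genes were counted is not given in the sources used here. The same limit holds for the 18 members whose span overlaps another coding gene, among them MRPS34 (with EME2), MRPS25 (with NR2C2), MRPL34 (with ABHD8) and MRPS28 (with TPD52-MRPS28). The library kit was stranded, but the strand setting of the counting is not given in the sources used here either.

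Promoters are shown first for 4 members that the results below turn on: MRPS18B and MRPL11, which fell under NIF in both SW620 populations, MRPS10, which rose there, and MRPL41, the member with the largest rise under NIF in SUM159. Each stretch runs from 70 bases before the RefSeq start to 40 after it, 5′ to 3′ on the strand of the gene (build GRCh38.p14). Capitals mark 3 motifs of factors known to act on nuclear genes for mitochondria: CCGGAAG (ETS family, which holds GABPA), GCATGCGC (NRF1) and AAGATGGC (YY1). An ETS match ending in AAG and a YY1 match beginning with it can share those bases.

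MRPS18B, chr6:30617770-30617879, plus strand: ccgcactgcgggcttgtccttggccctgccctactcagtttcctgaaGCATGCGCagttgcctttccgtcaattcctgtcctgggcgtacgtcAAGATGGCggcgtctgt
MRPL11, chr11:66438809-66438918, minus strand: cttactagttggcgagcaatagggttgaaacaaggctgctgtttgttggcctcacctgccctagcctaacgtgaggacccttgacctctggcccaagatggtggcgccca
MRPS10, chr6:42217822-42217931, minus strand: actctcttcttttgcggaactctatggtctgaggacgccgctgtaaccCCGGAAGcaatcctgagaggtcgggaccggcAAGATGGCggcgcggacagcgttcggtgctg
MRPL41, chr9:137551809-137551918, plus strand: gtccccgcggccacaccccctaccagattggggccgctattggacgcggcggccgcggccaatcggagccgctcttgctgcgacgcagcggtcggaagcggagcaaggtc

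MRPS18B held the NRF1 letters from base -23 and the YY1 letters from base 24, counted from 1 at the start, and MRPS10 held the ETS letters from base -22 and the YY1 letters from base 10. Neither MRPL11 nor MRPL41 held any of the 3. MRPL41 instead held CCAAT 4 times and GGGCGG 8 times in its whole window of 300 bases, counting both strands. In such windows, searched on both strands, the YY1 letters stood in 23 of the 86 windows of the 70 members that RefSeq's promoter table holds (26.7%), against 4.30% of the 17877 windows of all genes tested and 2.89% of all 35116 windows. For the ETS letters the shares were 38.4%, 15.4% and 10.3%, and for the NRF1 letters 6.98%, 4.42% and 3.05%. In 16 of the 23 member windows (69.6%) the YY1 letters lay after the start on the strand of the gene, where these letters also hold an ATG. The same held for 397 of the 768 windows of genes tested that had these letters (51.7%). The shares for the other letters searched were as follows: CCAAT (32.6% of member windows against 34.6% of windows of genes tested), GGGCGG (60.5% against 62.8%), TGACNNNGC (11.6% against 14.4%), CACGTG (11.6% against 8.89%) and TGATGNAAT (1.16% against 0.638%). A match is a match of letters, not a bound site. Not in that table were MRPL2, MRPL10, MRPL13, MRPL15, MRPL21, MRPL23, MRPL35 and MRPS28.

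The first question was whether the large and small subunit mRNAs keep step over the 8 groups. Members ranged widely in level, here over the 77 tested in both lines, which leaves out the barely counted MRPS24 (0.414 CPM per kb in SUM159 ALDHbr cells under DMSO). Per kilobase of transcript under DMSO in ALDHbr cells, the median member stood at 42.7 CPM per kb in SUM159 and 53.4 CPM per kb in SW620. The highest were MRPL3 (159 CPM per kb), MRPL12 (149 CPM per kb), which also binds the mitochondrial RNA polymerase, and MRPL4 (143 CPM per kb) in SUM159, and MRPL13 (212 CPM per kb), MRPL12 (202 CPM per kb) and MRPS34 (187 CPM per kb) in SW620. Of the 77, MRPL42 was lowest in both lines (5.88 and 5.69 CPM per kb), on a canonical transcript that is the longest of those quoted here (15557 bases). Its place per kilobase depends on that annotated length and does not mean a low count. The next lowest were MRPS33 in SUM159 (6.69 CPM per kb) and MRPS14 in SW620 (10.4 CPM per kb). The range from lowest to highest of the 77, with MRPL42 as the lowest, was 27.1-fold in SUM159 and 37.3-fold in SW620.

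Averaged over members as log2 CPM, not divided by transcript length, the large and the small subunit were nearly level in every library. Per kilobase under DMSO in ALDHbr cells, the large and small subunit medians were 43.3 and 38.8 CPM per kb in SUM159. In SW620 they were 61.6 and 48.7 CPM per kb. The mean log2 CPM of the 49 large subunit members minus that of the 28 small subunit members tested in both lines ran from -0.05 to 0.02 over the 24 libraries (median -0.02), while the mean over all 77 members ran from 5.74 to 6.24. By group, the difference was -0.02 ± 0.02 in SUM159 ALDHbr cells under DMSO, -0.02 ± 0.01 there under NIF, -0.04 ± 0.01 and -0.03 ± 0.01 in SUM159 ALDHneg cells under DMSO and NIF, 0.00 ± 0.01 and -0.01 ± 0.02 in SW620 ALDHbr cells, and -0.02 ± 0.01 and -0.03 ± 0.02 in SW620 ALDHneg cells (log2 units, mean ± SD, n = 3). With MRPS18A and MRPS30 counted as large and MRPS36 left out, the group means ran from -0.09 to -0.07. Both subunits rose and fell together, also in the 2 libraries that stood apart.

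NIF was then compared with DMSO in each line and population. A gene is called here when its adjusted p was under 0.05 in edgeR's quasi-likelihood test over all genes. Counts are shares of a library, so fewer cells expressing a gene and less of its mRNA per cell cannot be told apart.

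In SW620 ALDHbr cells the mRNAs of both subunits fell under NIF. Of 77 members, 34 (44.2%) were lower and MRPS10 alone was higher, where 21.9% of the 13953 genes tested were lower and 21.4% higher. By subunit, 23 of 49 large subunit members and 11 of 28 small subunit members fell, at medians of -0.24 and -0.21 on the log2 scale, against -0.01 for all genes tested. The median member had a log2 fold change of -0.22, and 72 of 77 had a negative value. Among the 3 lowest, MRPL23, a protein at the exit of the peptide tunnel, had 16.3, 12.0 and 16.7 CPM in the DMSO libraries and 9.49, 9.67 and 11.1 CPM under NIF, and so fell by 33.1% (log2 fold change -0.58, SE 0.12, adjusted p = 0.00113). MRPS18B, 1 of 3 human counterparts of a single bacterial small subunit protein, had 106, 87.4 and 106 CPM under DMSO and 64.4, 70.9 and 74.7 CPM under NIF, and fell by 30.0% (log2 fold change -0.51, SE 0.08, adjusted p = 9.42e-05). In neither did the groups overlap, and DMSO replicate 2 was the lowest DMSO library in both. MRPS28, of the small subunit, fell by 29.5% (log2 fold change -0.51, SE 0.09, adjusted p = 0.00053).

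Without DMSO replicate 2, which lay nearest to the NIF libraries, 61 members were lower and 1 higher, where 24.3% of 14147 genes were lower and 26.1% higher. All 34 members called with it were among the 61. Without NIF replicate 3, the NIF library with the highest member mean (6.04), 52 members were lower, against 2998 of 14166 genes. Other omissions called fewer. Without DMSO replicate 1 or 3, 27 and 29 members were lower (2610 of 14167 and 2610 of 14173 genes), at medians of -0.16 and -0.19. Without NIF replicate 1 or 2, 28 and 30 were lower (2605 of 14166 and 2510 of 14174 genes), at medians of -0.14 and -0.22. The part of sorting or culture in the spread of these libraries was not tested.

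In SW620 ALDHneg cells, whose replicates lay closer together, 23 of 77 members were lower (29.9%) and 3 higher (3.90%), against 22.7% and 22.3% of the 13953 genes tested. The large subunit had 15 lower and 1 higher of 49 and the small subunit 8 lower and 2 higher of 28, with medians of -0.13 and -0.09. The share of members that fell was thus nearer to that of all genes here than in ALDHbr cells, while few members rose. The lowest were MRPS18B (94.2, 88.7 and 88.4 CPM under DMSO, and 62.0, 61.9 and 61.9 CPM under NIF, a fall of 31.9%, log2 fold change -0.55, SE 0.08, adjusted p = 4.07e-05), MRPL23 (log2 fold change -0.53, SE 0.12, adjusted p = 0.0022) and MRPL11 (log2 fold change -0.40, SE 0.09, adjusted p = 0.00321), the latter part of the site where translation factors bind. MRPL11 had 88.2, 84.7 and 85.6 CPM under DMSO and 66.8, 68.1 and 62.8 CPM under NIF, with no overlap. Of the 34 and the 23 members that fell, 22 were shared, which is 64.7% of the ALDHbr and 95.7% of the ALDHneg list, and MRPL42 alone was called in ALDHneg cells only.

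Against this trend MRPS10, a small subunit protein of the head, rose in both SW620 populations. It had 80.3, 78.4 and 79.9 CPM under DMSO and 89.7, 96.9 and 101 CPM under NIF in ALDHbr cells (a rise of 20.2%, log2 fold change 0.27, SE 0.05, adjusted p = 0.00125), and 76.5, 80.9 and 80.3 CPM against 94.2, 95.3 and 99.2 CPM in ALDHneg cells (a rise of 20.7%, adjusted p = 0.000948). No NIF library overlapped a DMSO library. MRPL34 (log2 fold change 0.27, SE 0.07, adjusted p = 0.00731) and MRPS30 (log2 fold change 0.23, SE 0.07, adjusted p = 0.0141), a protein that structures place in the large subunit despite its name, rose in ALDHneg cells. In ALDHbr cells MRPS30 had a log2 fold change of 0.02 (SE 0.07, adjusted p = 0.811).

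In SUM159 few members were called, and in ALDHbr cells 62 of 78 values were above 0. There 2 of 78 were called, both higher under NIF (2.56%), against 0.936% of 14953 genes higher and 2.23% lower, and the median was 0.08 for the large and 0.09 for the small subunit. MRPL41, a large subunit protein, had 66.3, 69.7 and 60.0 CPM under DMSO and 83.8, 94.2 and 82.0 CPM under NIF, a rise of 32.3% (log2 fold change 0.40, SE 0.08, adjusted p = 0.0149) without overlap. Its call was lost without DMSO replicate 1, DMSO replicate 3 or NIF replicate 2 (adjusted p = 0.0541, 0.0657 and 0.0641). MRPS11, of the small subunit platform, had 32.7, 34.7 and 36.0 CPM against 40.4, 41.7 and 42.7 CPM (a rise of 20.3%, adjusted p = 0.0469), and its call was lost in 7 of 11 alternatives, which include leaving out any 1 of the 6 libraries (adjusted p up to 0.202). In ALDHneg cells edgeR called 0 of 78 members, with 10 under an unadjusted p of 0.05 and 2 called higher by DESeq2, where edgeR called 1.1% of all genes higher and 2.2% lower. The medians there were 0.03 for both subunits. The median over all members rested on single libraries, being 0.11 without DMSO replicate 2, when 3 members were higher, 0.0017 without DMSO replicate 1 and -0.0084 without DMSO replicate 3.

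Same-numbered SUM159 libraries deviated together, and a fit with the replicate as a block called more members. In ALDHbr cells 14 members were then higher and 1 lower (5.77% of all genes higher, 7.56% lower), and in ALDHneg cells 7 higher and 2 lower (6.1% and 7.08%). The 14 and the 7 shared 5 members (35.7% and 71.4% of each list): MRPL9, MRPL41, MRPL45, MRPL52 and MRPS2. MRPL41 had an adjusted p of 0.000119 and 0.0232 with the block. MRPS10 was among the lower members in both populations (log2 fold change -0.26, adjusted p = 0.0041, and -0.18, adjusted p = 0.0425, with the block), and without the block it had an adjusted p of 0.112 and 0.296. MRPS10 stood at 79.6, 77.4 and 77.7 CPM under DMSO and at 66.4, 67.6 and 63.0 CPM under NIF in SUM159 ALDHbr cells. MRPS27 was the other member lower in ALDHneg cells (log2 fold change -0.18, adjusted p = 0.0189 with the block).

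**Figure D1:**
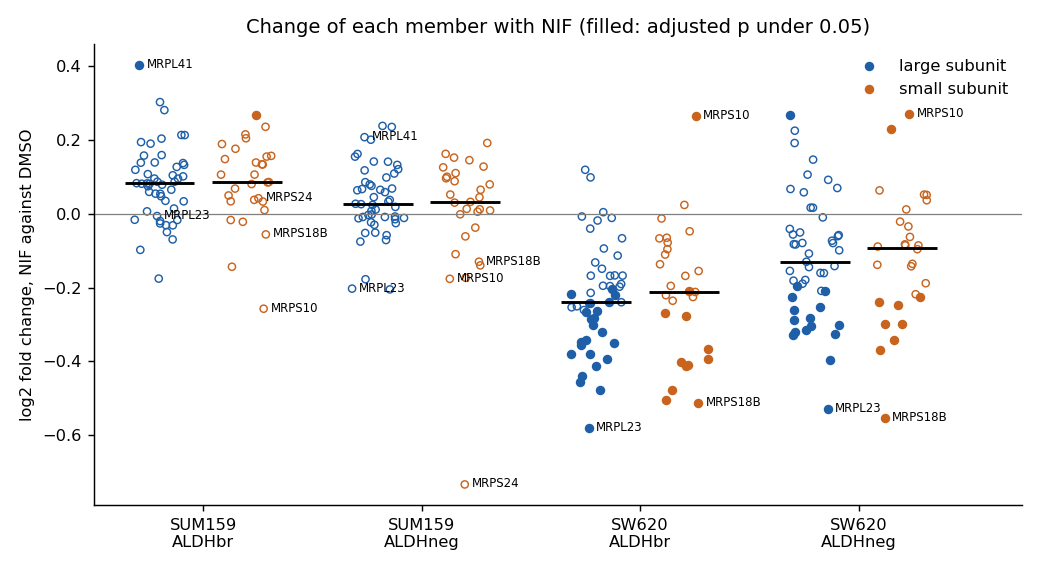
Log2 fold change under NIF against DMSO (y axis) of each member tested, by line and population (x axis) and subunit (colour); filled points are called and black bars are medians. The SW620 points lie mostly below 0, with MRPS10 above, and the SUM159 points lie about or slightly above 0, with the barely counted MRPS24 far below in ALDHneg cells.

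Whether the NIF effects differed between the lines was tested directly in a fit of all 24 libraries. In ALDHbr cells the difference was called in 32 of 78 members, 31 lower in SW620 than in SUM159 (39.7%) and 1 higher, MRPS10, against 10.7% of 16271 genes lower and 12.4% higher. The large subunit had 20 of 49 and the small subunit 11 of 29 lower. MRPS34, which belongs to the small subunit of mitochondria and has no bacterial counterpart, had the lowest difference among called members: in SUM159 ALDHbr cells it had 134, 138 and 121 CPM under DMSO and 146, 164 and 147 CPM under NIF, and in SW620 ALDHbr cells 207, 157 and 195 CPM against 114, 132 and 156 CPM (difference of log2 fold changes -0.68, SE 0.14, adjusted p = 0.00097). MRPL41 followed (-0.67, SE 0.15, adjusted p = 0.00251). MRPS10 had a difference of 0.52 (SE 0.11, adjusted p = 0.00071). The median difference was -0.30 for the large and -0.33 for the small subunit, with 74 of 78 members below 0. In ALDHneg cells 12 members had a lower and 2 a higher effect in SW620 (10.5% and 11.9% of all genes), so that the share of members lower (15.4%) was near that of all genes. The lowest were MRPL11 (-0.49, SE 0.12, adjusted p = 0.00301) and MRPL16 (-0.47, SE 0.11, adjusted p = 0.0035), and the highest MRPS10 (0.46, SE 0.10, adjusted p = 0.00227) and MRPL34 (0.31, SE 0.11, adjusted p = 0.0428). All 12 were among the 31 of ALDHbr cells (38.7% of that list). Without DMSO replicate 2 of SW620 ALDHbr cells 56 members were lower in the ALDHbr comparison (13.3% of all genes), and without DMSO replicate 2 of SUM159 ALDHneg cells 23 were lower in the ALDHneg comparison (10.7%). The call of MRPL34 was lost in 10 of 17 alternatives, among them leaving out any 1 of 9 libraries (adjusted p up to 0.147).

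**Figure D2:**
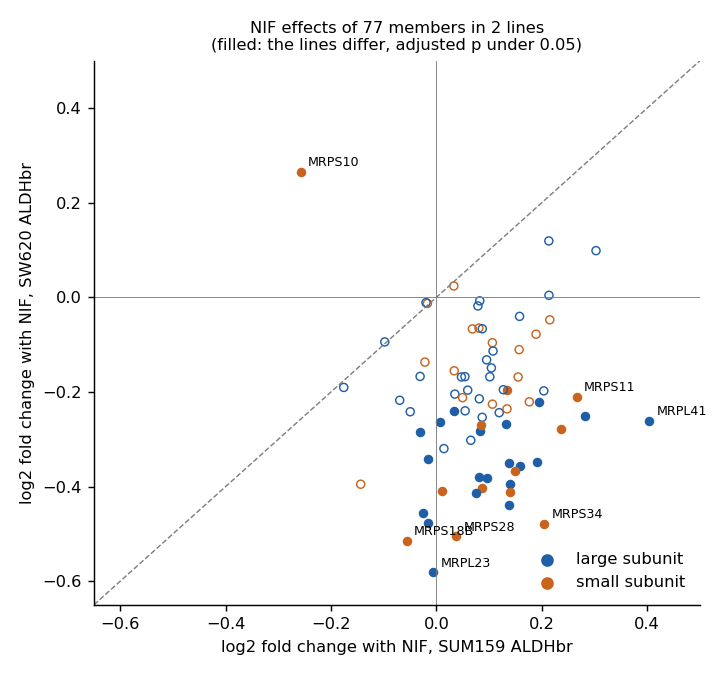
Log2 fold change under NIF in SUM159 ALDHbr cells (x axis) against that in SW620 ALDHbr cells (y axis) for 77 members; filled points differed between lines at an adjusted p under 0.05, and the dashed line marks equal effects. Most points lie below the dashed line, MRPS10 lies far above it, and no common slope is visible.

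Which members moved more was shared between the populations of a line and not between the lines. Across the 77 members, the NIF log2 fold changes of ALDHbr and ALDHneg cells had a Pearson r of 0.89 (Spearman 0.87) in SW620 and 0.74 (Spearman 0.71) in SUM159, next to 0.87 and 0.54 over all genes tested. Between SW620 and SUM159 r was 0.03 in ALDHbr and 0.09 in ALDHneg cells (Spearman 0.07 and -0.03), next to 0.05 and 0.11 over 12780 genes. These are correlations across genes, which are not independent replicates, and the points of a comparison share its libraries.

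The NIF effect was not shown to differ between ALDHbr and ALDHneg cells. The test of that difference by edgeR called 0 of 78 members in SUM159 and 0 of 77 in SW620, with 1 and 2 at an unadjusted p under 0.05, and DESeq2 called 0 in both. Over all genes, 0% were called in SUM159 and 0.00717% in SW620. In SW620 the members' values were below 0 in 72 of 77 (median -0.11), that is lower in ALDHbr cells, without 1 member that passed. That median was -0.18 without ALDHbr DMSO replicate 2 and -0.04 without ALDHbr DMSO replicate 1 or ALDHbr NIF replicate 1, with 0 members called by edgeR each time.

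The 8 members fixed for their position or history were MRPS18A, MRPS18B, MRPS18C, MRPS30, MRPS36, MRPL12, MRPL41 and MRPL58. The 3 MRPS18 proteins did not all move alike in SW620: besides MRPS18B, MRPS18A fell in ALDHbr cells (log2 fold change -0.28, SE 0.08, adjusted p = 0.0107) and had -0.14 (adjusted p = 0.178) in ALDHneg cells, and MRPS18C had -0.17 and -0.14 (adjusted p = 0.210 and 0.302). MRPL12 fell by 21.6% in SW620 ALDHbr cells (adjusted p = 0.0106, and 0.0534 without DMSO replicate 1) and had a log2 fold change of -0.16 in ALDHneg cells (adjusted p = 0.205). MRPL58, a ribosome-bound peptidyl-tRNA hydrolase that rescues stalled ribosomes, had values of -0.15 and 0.15 (adjusted p = 0.180 and 0.182). MRPS36, named KGD4 in RefSeq as a subunit of the oxoglutarate dehydrogenase complex, had -0.14 and 0.01 (adjusted p = 0.0861 and 0.894). In SUM159 the only called value among the 8 was that of MRPL41 in ALDHbr cells, with MRPS18A (log2 fold change 0.24, adjusted p = 0.178) called with the replicate block (adjusted p = 0.00873).

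**Figure D3:**
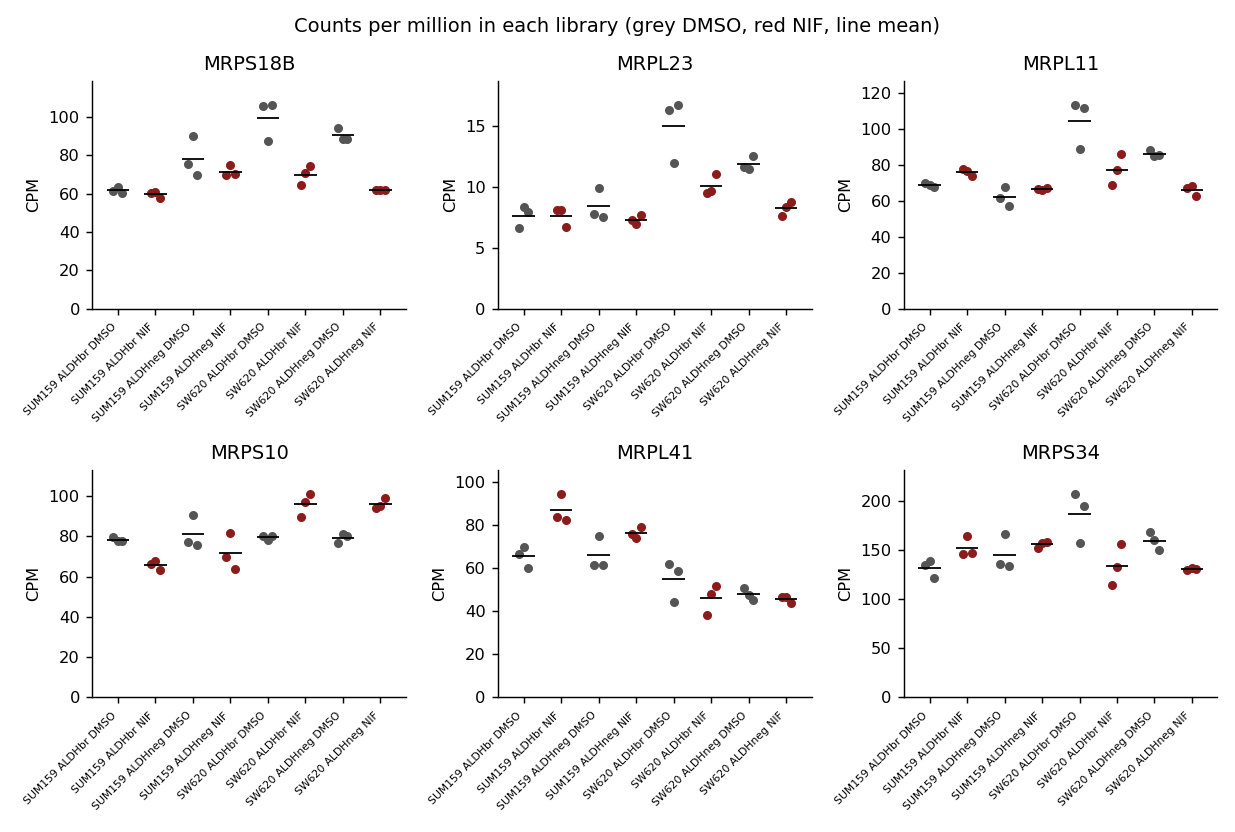
CPM (y axes, from 0) of 6 members in each library of the 8 groups (x axes), with DMSO in grey, NIF in red and a line at the mean of 3 libraries. MRPS18B, MRPL23, MRPL11 and MRPS34 are lower under NIF in SW620, MRPS10 is higher in SW620 and lower in SUM159 ALDHbr cells, and MRPL41 is higher in SUM159 ALDHbr cells.

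The subunits' medians were then compared within each contrast, as a description. Large minus small, the difference was -0.0037 in SUM159 ALDHbr and -0.0051 in ALDHneg cells for NIF against DMSO. Each difference is set beside a spread, taken from the SDs between libraries of the large minus small mean log2 CPM over the 77 members. This was 0.03 and 0.01 here on the log2 scale. Being a spread of means, it does not measure the spread of a difference of medians. With 1 library left out the difference in SUM159 ALDHbr cells ran from -0.03 to -0.0083. With means that in SUM159 ALDHneg cells was 0.03, the mean of the small subunit including MRPS24 (-0.73). In SW620 the difference of medians was -0.03 in ALDHbr and -0.04 in ALDHneg cells, against a spread of 0.02 in both. With means, the measure that the spread is of, it shrank to -0.01 and -0.003, within that spread. Between the populations under DMSO it was 0.0017 in SUM159 (spread 0.03) and 0.04 in SW620 (spread 0.02), and 0.03 in SW620 with means. Between the lines it was -0.04 in ALDHbr (spread 0.03) and -0.02 in ALDHneg cells (spread 0.01), and with means it turned to 0.06 and 0.15. The small subunit means of the line comparisons include the barely counted MRPS24, at -3.77 in ALDHneg cells. Over the 77 members without MRPS24, the large minus small level under DMSO was -0.04 in SUM159 and -0.02 in SW620 ALDHneg cells. In ALDHbr cells it was -0.02 and 0.00.

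The sorted populations were compared under DMSO. In SW620 the members were shifted upwards in ALDHbr cells, 75 of 77 having a positive value, with a median of 0.19 for the large and 0.15 for the small subunit, next to 0.01 for all genes. With offsets for transcript length and GC content, added after seeing the data, the median over all 77 members went from 0.17 to 0.05. Only 5 (6.49%) were called, all higher, against 5.45% of genes higher and 5.86% lower, so that the called share did not stand apart from the background. They were MRPS28 (25.3, 24.7 and 26.7 CPM in ALDHneg and 37.1, 29.9 and 32.5 CPM in ALDHbr cells, log2 fold change 0.38, SE 0.09, adjusted p = 0.0191), MRPL32 (0.35, SE 0.06, adjusted p = 0.00345), which the inner membrane protease matures before it joins the ribosome, MRPL16 (0.33, SE 0.08, adjusted p = 0.0158), and MRPL57 and MRPL44, named since the list is short. This comparison turned on ALDHbr DMSO replicate 2: without it 59 members were higher at a median of 0.24 (18.6% of 14147 genes were higher and 20.2% lower). Without any 1 of the other 5 libraries 1 or 2 members were higher, next to 307 to 332 higher over all genes. MRPS28 and MRPL16 each lost their call in 4 of 11 alternatives, all of them a library left out (adjusted p up to 0.0961 and 0.0795).

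In SUM159 the members leaned the other way, with 12 of 78 lower (15.4%) and 3 higher (3.85%) in ALDHbr than in ALDHneg cells, against 12.3% lower and 10.7% higher of all genes, and a median of -0.06 for both subunits. The lowest were MRPS28 (19.7, 21.7 and 20.8 CPM in ALDHbr and 25.9, 29.1 and 25.4 CPM in ALDHneg cells, log2 fold change -0.37, SE 0.07, adjusted p = 0.00153), MRPL46 (-0.35, SE 0.11, adjusted p = 0.0371) and MRPS18B (-0.34, SE 0.08, adjusted p = 0.00452). The higher were MRPS6 (0.28, SE 0.08, adjusted p = 0.0217), MRPS25 (0.27, SE 0.06, adjusted p = 0.00415) and MRPL3 (0.18, SE 0.05, adjusted p = 0.0218). With the replicate block 20 were lower and 4 higher (18.2% and 17.9% of all genes). Without ALDHneg DMSO replicate 2 the median over members turned to 0.01, with 5 lower and 4 higher, so that its sign rested on that library. Then 9.52% of all genes were higher and 10.7% lower. A fit that combined the replicate number with transcript length and GC offsets, chosen after seeing the data, had 13 higher and 15 lower (28.5% and 15.5% of all genes) at a median of 0.0042. The median over all genes was 0.06 in that fit, in place of 0.0005, so that the members' median still lay below it. Without ALDHbr DMSO replicate 1 or 3, 6 and 4 were lower (1458 of 15252 and 1385 of 15182 genes), and without ALDHneg DMSO replicate 1, 8 (1435 of 15110). Without ALDHbr DMSO replicate 2 or ALDHneg DMSO replicate 3, 10 and 15 were lower (1509 of 15267 and 1615 of 15170 genes). MRPS6, MRPL3 and MRPL46 lost their calls in 4, 4 and 3 of 11 alternatives, while MRPS28, MRPS18B and MRPS25 kept theirs in all 11. MRPS28 was thus called in opposite directions in the sorted populations of the lines.

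The lines were then compared. Under DMSO, 50 of 78 members (64.1%) were higher and 11 (14.1%) lower in SW620 than in SUM159 ALDHbr cells, against 39.6% higher and 41.7% lower of 16271 genes, with a median of 0.33 for the large and 0.36 for the small subunit. In ALDHneg cells 26 (33.3%) were higher and 21 (26.9%) lower, against 38.5% and 42.7%, with medians of 0.08 and 0.10. Without DMSO replicate 2 of SW620 ALDHbr cells, 55 were higher and 8 lower in ALDHbr cells (39% and 41% of all genes). Without DMSO replicate 2 of SUM159 ALDHneg cells, 38 were higher and 15 lower in ALDHneg cells (38.2% and 41.3%), at a median over members of 0.19 in place of 0.09. The block with offsets gave 40 members higher and 19 lower there, at a median of 0.19. That fit called 7633 of 16271 genes higher and 5782 lower, and the median over all genes was 0.15 in place of -0.07. All 26 were among the 50 (52% of them), and 10 of the 21 lower ones were among the 11 (47.6% and 90.9%). Scaling by library size alone moved the median of all genes from -0.05 to -0.20 in ALDHbr and from -0.07 to -0.24 in ALDHneg cells, and the members then split 41 higher to 17 lower in ALDHbr (34.3% and 47.2% of all genes) and 21 higher to 35 lower in ALDHneg cells (32.9% and 48.8%), where their median turned to -0.08.

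MRPL13 stood furthest apart. It lies on chromosome 8 (chr8:120395437-120445150) and had 54.5, 55.4 and 51.5 CPM in SUM159 and 296, 228 and 278 CPM in SW620 ALDHbr cells (log2 fold difference 2.31, SE 0.09, adjusted p = 6.79e-18), and a difference of 2.08 (SE 0.09) in ALDHneg cells. MRPL45, which anchors the large subunit to the inner membrane (chr17:38297168-38323211), had 41.6, 46.7 and 44.04 CPM against 150.5, 132 and 149 CPM (1.71, SE 0.07, adjusted p = 8.6e-17), and 1.54 in ALDHneg cells. Its pseudogene MRPL45P2 held 0.888 to 2.23 CPM. At the other end, MRPS25 (chr3:15042251-15065315) had 118, 120.0 and 131 CPM in SUM159 and 56.3, 51.7 and 50.8 CPM in SW620 (-1.22, SE 0.06, adjusted p = 3.12e-15), and MRPL35 (chr2:86199433-86213794) had 111, 116 and 122 CPM against 55.0, 49.7 and 50.6 CPM (-1.17, SE 0.07, adjusted p = 2.75e-14). In ALDHneg cells these were -1.10 and -1.06. None of these groups overlapped. MRPS24 had the lowest value of all in ALDHneg cells (-3.77), on at most 0.633 CPM.

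By chromosome, the 7 members on chromosome 11 had a median line difference of 0.94 in ALDHbr cells (range 0.18 to 1.45), next to 0.26 for the 898 genes tested there, and of 0.50 in ALDHneg cells, next to 0.22. The 5 on chromosome 5 had -0.34 in ALDHbr cells, next to -0.34 for 739 genes, and the 4 on chromosome 3 had -0.16, next to -0.48 for 916 genes. On chromosome 8, 3 members had 0.68 in ALDHbr cells, next to 0.11 for 555 genes. On chromosomes 6 and 19 the members went against the other genes in ALDHbr cells, with 0.34 for 6 members next to -0.32 for 860 genes and -0.20 for 4 members next to 0.06 for 1106 genes. In ALDHneg cells chromosome 6 had 0.09 next to -0.35 and chromosome 19 -0.52 next to -0.06. On the other 6 chromosomes with at least 3 members (1, 2, 7, 9, 12 and 17) the members had 0.22 to 0.44 and all genes -0.06 to 0.23 in ALDHbr cells. In ALDHneg cells the members there had -0.15 to 0.15 and all genes -0.13 to 0.17, with -0.13 next to 0.13 on chromosome 9. Copy number was not measured in these files.

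**Figure D4:**
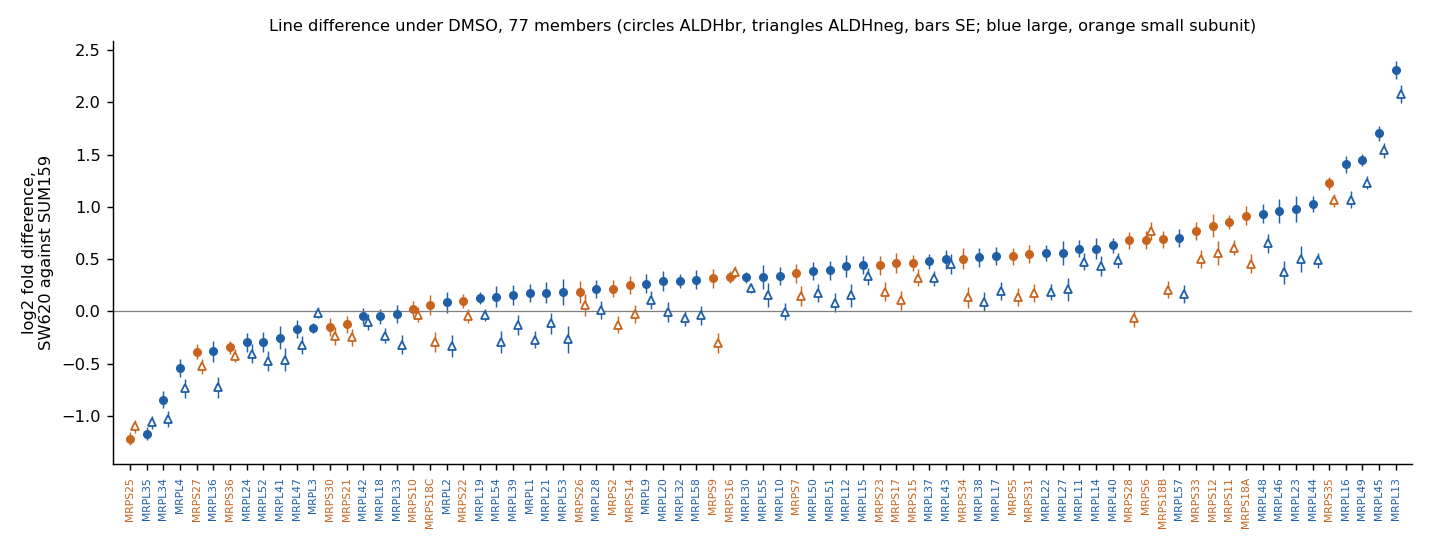
Log2 fold difference between SW620 and SUM159 under DMSO (y axis, bars SE) of 77 members in order of the ALDHbr value (x axis); circles are ALDHbr and triangles ALDHneg cells, and MRPS24 is left out. The values run from -1.22 (MRPS25) to 2.31 (MRPL13) in ALDHbr cells, with large and small subunit members mixed along the order.

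Other genes for mitochondria were taken as lists. These covered ribosomal proteins with other names, ribosome assembly, translation factors, mitochondrial DNA transcription and replication, regulators of nuclear genes, and chaperones and proteases. Of the 75 genes pooled from these lists, 1 was called under NIF in either SUM159 population, MTERF4 in ALDHneg cells (log2 fold change 0.27, SE 0.07, adjusted p = 0.0477), which guides an rRNA methylase to the large subunit. In SW620, 30 of 74 tested were lower and 7 higher in ALDHbr cells, and 27 lower and 15 higher in ALDHneg cells, against the backgrounds given above. Of 25 assembly and rRNA modification genes, 11 were lower in each population, with 1 higher in ALDHbr and 4 in ALDHneg cells. The lowest was MRM1, which methylates the large subunit rRNA (log2 fold change -0.76, SE 0.07, adjusted p = 1.86e-06, and -0.70, SE 0.07, adjusted p = 3.69e-06), and the highest the assembly GTPase MTG1 (0.21, adjusted p = 0.0384, and 0.33, adjusted p = 0.00332).

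Of 18 translation factors, 7 were lower and 1 higher in SW620 ALDHbr cells and 6 lower and 3 higher in ALDHneg cells. SLIRP, which protects mitochondrial mRNAs, was lowest in ALDHbr cells (-0.56, SE 0.12, adjusted p = 0.00232) and the release factor homologue MTRF1 in ALDHneg cells (-0.50, SE 0.08, adjusted p = 0.000162). The insertase OXA1L (0.16, adjusted p = 0.0313) and the deformylase PDF (0.25, adjusted p = 0.0422) were the highest. Of 9 genes for transcription and replication of mitochondrial DNA, 5 were lower and 1 higher in ALDHbr cells and 3 lower and 1 higher in ALDHneg cells. The polymerase subunit POLG2 (-0.42, SE 0.09, adjusted p = 0.00262) and TFAM, which packages mitochondrial DNA (-0.45, SE 0.05, adjusted p = 9.76e-06), were the lowest in ALDHbr and ALDHneg cells, while the RNA polymerase POLRMT rose in both (0.19, adjusted p = 0.0264, and 0.24, adjusted p = 0.00816).

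The 9 chaperones and proteases moved both ways, 4 lower and 3 higher in ALDHbr and 3 lower and 3 higher in ALDHneg cells. The co-chaperonin HSPE1 was lowest (-0.65, SE 0.12, adjusted p = 0.000425, and -0.63, SE 0.12, adjusted p = 0.000487) and the matrix protease LONP1 highest (0.50, SE 0.07, adjusted p = 4.21e-05, and 0.54, SE 0.07, adjusted p = 1.67e-05). Of 8 regulators tested, NRF1 was lower in ALDHbr cells (-0.27, SE 0.07, adjusted p = 0.00664) and GABPA, an ETS factor, lowest in ALDHneg cells (-0.31, SE 0.12, adjusted p = 0.0483), while MYC (0.18, SE 0.04, adjusted p = 0.00304) and the nuclear receptor ESRRA (0.29, SE 0.08, adjusted p = 0.00684) were the highest in ALDHbr and ALDHneg cells. Of 5 ribosomal proteins that carry other names, GADD45GIP1 was lowest in ALDHbr cells (-0.30, SE 0.11, adjusted p = 0.0334), and in ALDHneg cells PTCD3 fell (-0.31, SE 0.05, adjusted p = 0.000168) and DAP3 rose (0.21, SE 0.07, adjusted p = 0.023). The table held no rows for the 13 mRNAs and 2 rRNAs that mitochondrial DNA encodes, so that the RNAs the members assemble with or translate were not analysed here.

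For comparison, of 82 cytosolic ribosomal protein genes tested in SW620, 5 were lower and 2 higher in ALDHbr cells and 1 lower and 6 higher in ALDHneg cells (medians -0.05 and 0.08). Of 37 nuclear genes for complex I, the first enzyme of the respiratory chain, 10 were lower in ALDHbr (median -0.18) and 5 in ALDHneg cells (median -0.06). Of all 13953 genes 21.9% were lower and 21.4% higher in ALDHbr cells, and 22.7% and 22.3% in ALDHneg cells. Without DMSO replicate 2 of ALDHbr cells, 36 of the 82 cytosolic ribosomal protein genes (median -0.15) and 29 of the 37 complex I genes (median -0.26) were lower in ALDHbr cells. So were 35 of the 74 genes pooled from the mitochondrial lists, against 24.3% of all 14147 genes. The cytosolic count thus rested on that library. The difference between these lists and the members was not tested.

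Members with and without 3 of the promoter letters were set side by side in SW620, as a description. In SW620 ALDHbr cells, the median log2 fold change under NIF was -0.24 for 20 members with and -0.22 for 49 without the YY1 letters, and -0.21 for 30 with and -0.24 for 39 without the ETS letters. The 6 with the NRF1 letters had -0.22, as had the 63 without. Of the 70 members with a promoter window, 22 (31.4%) had the start of another tested gene within 1000 bases on the opposite strand, pointing away, against 18.7% of 12417 genes. One such pair joins both subunits: MRPL46 and MRPS11 on chromosome 15 are divergent neighbours, and in SW620 ALDHbr cells MRPS11 fell under NIF (log2 fold change -0.21, SE 0.07, adjusted p = 0.0234) and MRPL46 had -0.24 (SE 0.10, adjusted p = 0.0626).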

How the data were processed

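RNA of 24 sorted cell samples was sequenced from stranded total RNA libraries. The authors deposited a table of raw counts per gene, unnormalized. Per the labels, FastQC, STAR and GRCh38 were used, while versions and the counting tool are not given in the sources used here. Depth limits precision by counting error only.

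Low genes were removed with filterByExpr, libraries scaled by TMM, and each line (12 libraries) fitted apart by edgeR 4.0.16 (R 4.3.3) with the quasi-likelihood test and Benjamini-Hochberg adjustment over all genes (threshold 0.05). Differences between lines came from a fit of all 24. CPM used TMM over 24 libraries, and log2 CPM a prior count of 2. The fit was tested on simulated data. With 3 libraries a group, p-values measure the spread between these samples.

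Members and lists were chosen with earlier results of these data known. Genes named are the 3 highest and 3 lowest called members (2 for lines) whose mean log2 CPM reached 1, and 8 fixed members. Same-numbered SUM159 libraries deviated together (correlations 0.182 to 0.451), so blocked counts are given. Alternatives were DESeq2 1.42.0, RLE factors, library-size scaling, no filter, the replicate block, means for medians, MRPS18A and MRPS30 counted as large with MRPS36 left out, each library left out and, chosen after seeing the data, offsets for transcript length and GC content. Promoters, coordinates and symbols came from RefSeq (GRCh38.p14), and transcript lengths from GENCODE.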

Additional observations from a re-analysis of the deposited data

Results flagged for a closer look

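The NIF effect differed between SW620 and SUM159, by the test of that difference, in 32 members in ALDHbr cells and 14 in ALDHneg cells. In ALDHbr cells 39.7% of 78 members were lower in SW620 and 1.28% higher, against 10.7% and 12.4% of 16271 genes. In ALDHneg cells the shares were 15.4% and 2.56%, against 10.5% and 11.9% of all genes, so that the share lower was near the background. In ALDHbr cells the named members were MRPS10 (0.52 on the log2 scale, SW620 minus SUM159), MRPS34 (-0.68) and MRPL41 (-0.67). In ALDHneg cells they were MRPS10 (0.46), MRPL34 (0.31), MRPL11 (-0.49) and MRPL16 (-0.47). Tissue of origin and line cannot be told apart here.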

How the results depend on the processing

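RLE factors moved no count of called members past 1.5 times. DESeq2 called 4 members for NIF in SUM159 ALDHbr cells, 2 in ALDHneg cells and 11 between the SW620 populations, and without a filter on low counts 4 were called in SUM159 ALDHbr cells. Over all genes DESeq2 called 322 higher and 526 lower, and 332 and 512, of 14953 in SUM159. Between the SW620 populations it called 1027 and 1150 of 13953. For NIF in SUM159 ALDHbr cells the fit without a filter called 217 higher and 437 lower of 23037. Library-size scaling called 53 for NIF in SW620 ALDHbr cells and 28 for the line difference of NIF effects in ALDHneg cells. Over all genes it called 2664 higher and 3511 lower of 13953, and 1615 higher and 2335 lower of 16271. The replicate block called 15, 9 and 24 in SUM159 (NIF in ALDHbr, NIF in ALDHneg, populations under DMSO) and 3 between the SW620 populations. Same-numbered SW620 libraries mostly did not deviate together (correlations -0.278 to 0.214, 1 of 12 over 0.1). Whether they came from the same experiment was not tested. The shares of all genes with the block in SUM159 are given above. Between the SW620 populations the block called 530 genes higher and 613 lower of 13953. The block lost 0 calls of named members and gained 2, both given above. Added after seeing the data, the block with offsets for transcript length and GC content called 19, 18 and 28 in SUM159 and 53 and 34 for the line difference of NIF effects in ALDHbr and ALDHneg cells. Over all 14953 genes of SUM159 it called 1432 higher and 1049 lower, 1453 and 1127, and 4261 and 2314. For the line difference it called 2272 higher and 3223 lower, and 2290 and 3052, of 16271 genes. In SW620 the offsets called 41 for NIF in ALDHneg cells and 8 between populations. Of 13953 genes they called 3413 higher and 4218 lower for NIF in ALDHneg cells, and 1080 higher and 1347 lower between populations. Many of these counts thus went with more calls over all genes. The cause of these shifts was not tested. With 1 library left out, counts ran from 0 to 1, 0 to 3 and 5 to 16 in SUM159, from 28 to 62 and 19 to 23 for NIF in SW620 ALDHbr and ALDHneg cells, from 1 to 59 between the SW620 populations, and from 23 to 57 and 11 to 24 for the line difference of NIF effects.

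The large minus small difference of medians was, with means, 0.0342 for NIF in SUM159 ALDHneg cells, 0.0456 between the SUM159 populations, -0.00299 for NIF in SW620 ALDHneg cells, 0.0254 between the SW620 populations, and 0.0606 and 0.145 between lines in ALDHbr and ALDHneg cells. The small subunit means in SUM159 and between lines include the barely counted MRPS24, at -3.77 between lines in ALDHneg cells. With MRPS18A and MRPS30 counted as large and MRPS36 left out it was -0.0745 and -0.0345 between lines, and with the block -0.0540 between lines in ALDHneg cells. With 1 library left out it ran from -0.0217 to 0.0108 for NIF in SUM159 ALDHneg cells, -0.00777 to 0.0315 between the SUM159 populations, -0.0468 to 0.00864 and -0.0584 to 0.00416 for NIF in SW620 ALDHbr and ALDHneg cells, 0.0101 to 0.0686 between the SW620 populations, and -0.0764 to -0.0237 and -0.0495 to -0.0148 between lines. The other assignment put the large minus small level per library at -0.0690, -0.0675, -0.0845 and -0.0721 in SUM159 (ALDHbr DMSO, ALDHbr NIF, ALDHneg DMSO, ALDHneg NIF) and at -0.0670, -0.0656, -0.0897 and -0.0680 in SW620.

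Of the values for named members, those that turned sign were uncalled. Library-size scaling gave -0.00489 for MRPS30 in SW620 ALDHbr and -0.0482 for MRPS36 in SW620 ALDHneg cells, and the block with offsets 0.00941 and 0.00891 for MRPS36 in SUM159 ALDHbr and ALDHneg cells. With 1 library left out, NIF values ran from -0.00695 to 0.139 (MRPS18A), -0.0207 to 0.123 (MRPS18C), -0.0268 to 0.0200 (MRPS36) and -0.0765 to 0.0706 (MRPL58) in SUM159 ALDHneg cells, from -0.0355 to 0.0956 (MRPS30) and -0.0738 to 0.0289 (MRPS36) in SUM159 ALDHbr cells, from -0.0455 to 0.0926 for MRPS30 in SW620 ALDHbr cells, and from -0.0126 to 0.0585 for MRPS36 in SW620 ALDHneg cells. Over all values of named members, leaving out a library kept 366, lost 38 calls, gained 6 and turned 16.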

Other observations

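The cytosolic ribosomal protein genes, which encode the ribosome of the cytoplasm, were higher in SW620 ALDHbr than ALDHneg cells under DMSO in 19 of 82 tested and lower in 0 (median log2 fold change 0.26), where 5.45% of all genes were higher and 5.86% lower. Without DMSO replicate 2 of ALDHbr cells 79 of 82 were higher (median 0.35, 18.6% of all genes), so that the count rested on that library. In SUM159, 2 of 83 were higher and 3 lower (10.7% and 12.3% of all genes). Of 37 nuclear complex I genes, 1 was higher in SW620 ALDHbr cells (median 0.24) and 33 without that library (median 0.31), and in SUM159 2 were higher and 2 lower (median 0.06). Between the lines, 49 of 83 cytosolic ribosomal protein genes were higher and 16 lower in SW620 ALDHbr cells (39.6% and 41.7% of all genes; 54 and 12 without the library), and 24 were higher and 24 lower in ALDHneg cells (38.5% and 42.7%). The 9 mitochondrial chaperones and proteases were higher in SW620 in 6 and lower in 2 in both populations (medians 0.55 and 0.50).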
